A study of Mus musculus with 7 samples.

Results

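Genes of the constitutive proteasome were examined in RNA pulled down with tagged endothelial ribosomes from mouse retina. The members are the rows of the expression table whose symbol begins with Psma, Psmb, Psmc or Psmd and a number, with the immunoproteasome genes Psmb8, Psmb9 and Psmb10 left out. The rule took 36 of the 12756 genes in the table, of which 15 encode the core particle (Psma and Psmb) and 20 belong to the regulatory particle (Psmc and Psmd). The remaining row, Psmc3ip, shares only the letters: it encodes a recombination factor of meiosis, had a level of 0 to 42.2 CPM over the libraries and is left out of every count below. Psmb11, which encodes the thymus form of a catalytic subunit, and the assembly chaperone genes Psmd5, Psmd9 and Psmd10 also came in by name. Every other row is a gene of a constitutive subunit.

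The mice were adult C57BL/6 animals of the genotype Cdh5-CreERT2 Rpl22 tm1.1Psam, in all groups alike. In this model a tamoxifen-inducible Cre, driven by the endothelial Cdh5 promoter, adds an HA tag to the ribosomal protein Rpl22, and ribosomes with their bound RNA are pulled down with an anti-HA antibody. Control IgG was given for 3 libraries and anti-Dll4, which blocks a Notch ligand, for 4. Whether libraries come from different animals is not stated in the labels, and the spread behind the p-values may be technical in part. Libraries are called by the number of their column in the table.

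The proteasome degrades proteins that carry ubiquitin chains. Its core particle is a barrel of stacked rings: the outer alpha rings (Psma genes) gate the entry, and the inner beta rings (Psmb genes) hold the catalytic threonines of Psmb5, Psmb6 and Psmb7. The regulatory particle caps the barrel. Its base unfolds substrates with a ring of ATPases (Psmc genes), and its lid (most Psmd genes) removes the ubiquitin chain. The subunits act in fixed proportions in the assembled particle and are made in all nucleated cells, so that in a mixed tissue their RNA can come from any cell type.

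The libraries held 1356192 to 1771086 reads over the listed genes, so that 3 reads, taken as the floor of detection, are 1.69 to 2.21 CPM (reads scaled to the same total in each library). These reads are 6.78% to 8.86% of the median read number that the labels give for the series. What became of the other reads is not given in the sources used here. Their part in low counts was not tested. All 18 endothelial markers examined were in the table, with a summed level of 1870 to 2842 CPM in control and 4217 to 5374 CPM in anti-Dll4 libraries. All 15 rod photoreceptor markers were there too, at 24691 to 26162 CPM in control and 11173 to 20609 CPM in anti-Dll4 libraries, and none was at 0 in any library. Of the endothelial markers, Tek was at 0 reads in 3 libraries and Emcn and Ecscr in 1 library each. The labelled endothelial RNA therefore came with much rod RNA, more of it in the control libraries. Its part in the results below was not tested, and in such bulk samples fewer cells of a type and less RNA per cell cannot be told apart. Input RNA was not analysed here.

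No proteasome gene passed the test between anti-Dll4 and control IgG. The comparison asks which ribosome-bound transcripts respond to blocked Dll4. With limma, 10899 genes were tested on log2(CPM + 1), and 13 had a Benjamini-Hochberg adjusted p under 0.05 (0.119%), all of them higher in anti-Dll4 libraries. All 15 core and all 20 regulatory genes were tested, and 0 of 15 and 0 of 20 passed. The smallest adjusted p among them was 0.695 (limma). At an unadjusted p under 0.05 there were 2 of 35, Psmb5 and Psmd10, against 7.09% of all genes tested (3.68% higher and 3.41% lower in anti-Dll4 libraries). With voom on whole reads, another limma fit, 0 of 35 passed.

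As a description, the median log2 change was 0.70 for core genes (9 of 15 above 0) and 0.23 for regulatory genes (13 of 20 above 0), while the median of all genes tested was -0.14 and 45.5% of them were above 0. Core genes with a mean of at least 50 CPM had a median of 0.27 (4 of 8 above 0), and those under 50 CPM 1.19 (5 of 7). For regulatory genes these medians were 0.22 (7 of 10) and 0.24 (6 of 10). By mean CPM, 11 of 15 core and 11 of 20 regulatory genes were higher in anti-Dll4 libraries. The sign differed from that of the log2 change for 6 members. Scaled on the endothelial markers, the medians of all core and all regulatory genes turned negative, to -0.73 and -1.21. It was a scaling that moved the median of all genes to -1.57. This scaling moves every gene by the same log2 amount, so it leaves the distance between a group and the median gene as it was. The regulatory median was also -0.091 without control IgG 3, 0.49 without anti-Dll4 1 and 0.12 without anti-Dll4 2. The core median ran from 0.57 to 0.97 over the 7 fits that each leave out a library. Single genes were measured too imprecisely to show changes of this size: the 95% interval of a change reached a median of 1.77 log2 units to either side for core genes and 2.34 for regulatory genes.

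**Figure D1:**
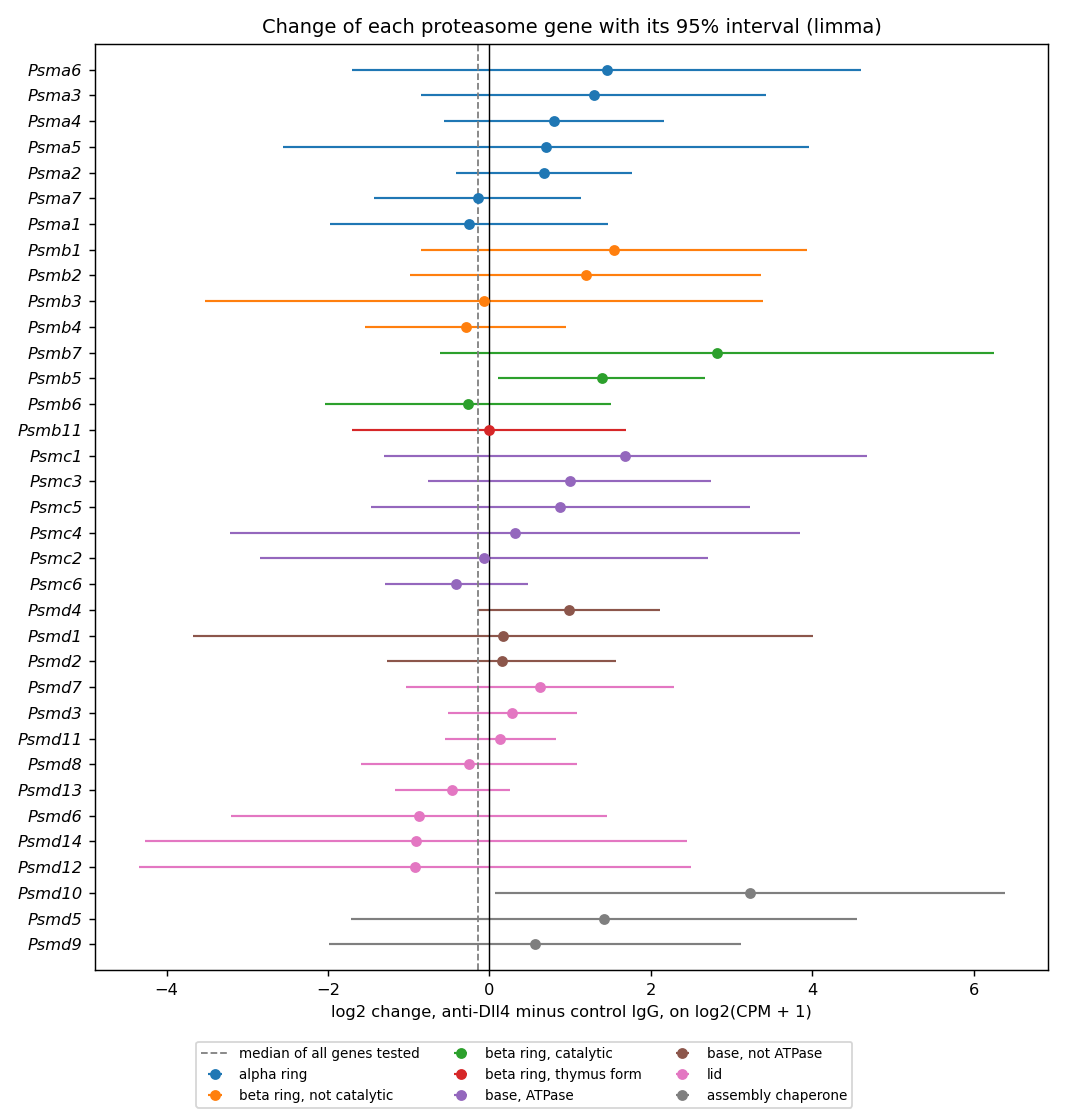
Log2 change of each of the 35 genes (horizontal axis, anti-Dll4 minus control IgG on the log2(CPM + 1) scale) with its unadjusted 95% interval from limma, coloured by role in the particle; the dashed line is the median of all genes tested (-0.14). The intervals of Psmb5 and Psmd10 leave out 0 before adjustment for the number of genes. Scaled on endothelial markers, the median changes are -0.73 (core), -1.21 (regulatory) and -1.57 (all genes tested).

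Among the catalytic genes of the core, Psmb5, which encodes the chymotrypsin-like subunit, was at 87.3, 31.7 and 124 CPM in control IgG 1, 3 and 4. In anti-Dll4 1 to 4 it was at 184, 139, 201 and 230.4 CPM. Every anti-Dll4 library lay above every control library, with the lowest control value in control IgG 3. The log2 change was 1.39 ± 0.61 (SE; 95% interval 0.11 to 2.67), with an unadjusted p of 0.0346 and an adjusted p of 0.695 in limma. It was 0.83 without control IgG 3, and -0.044 under scaling on endothelial markers, that is, about as large as the change of those markers.

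Psmb7, the trypsin-like subunit, had 14, 1 and 5 reads in the controls versus 97, 6, 77 and 87 with anti-Dll4. It was low in all controls and in anti-Dll4 2, so the groups overlapped. Its log2 change of 2.82 ± 1.65 was the highest among core genes (adjusted p = 0.75, limma). Psmb6, the caspase-like subunit, was at 137, 38.3 and 116 CPM in the controls versus 70.3, 17.7, 252 and 75.7 CPM with anti-Dll4. The groups overlapped over their whole range, and the log2 change of -0.27 ± 0.85 turned to 0.37 without anti-Dll4 2 and to 0.073 without control IgG 1, while the mean CPM was slightly higher in anti-Dll4 libraries (104 against 97.1).

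The promoters of Psmb5 and Psmb6 are shown because, of the 12 core genes with a promoter window, these were the 2 that held TGACNNNGC. This is the core of the antioxidant response element that NFE2L1 and NFE2L2, the transcription factors known for driving proteasome genes, can bind. Psmb1, Psmb2 and the catalytic gene Psmb7 had no window and were not searched. The sequences are from RefSeq (GRCm38.p6) and run 5′ to 3′ on the gene's strand from 250 bases before the gene's start to 50 bases after it, with the match in capitals. The Psmb5 window is chr14:54617946-54618245 on the minus strand and the Psmb6 window chr11:70525107-70525406 on the plus strand.
Psmb5: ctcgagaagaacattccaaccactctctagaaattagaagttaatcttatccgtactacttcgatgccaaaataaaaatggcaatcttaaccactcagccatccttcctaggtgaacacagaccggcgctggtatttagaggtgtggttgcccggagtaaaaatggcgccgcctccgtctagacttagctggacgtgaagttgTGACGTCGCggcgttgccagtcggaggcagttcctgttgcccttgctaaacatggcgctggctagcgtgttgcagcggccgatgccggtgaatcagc
Psmb6: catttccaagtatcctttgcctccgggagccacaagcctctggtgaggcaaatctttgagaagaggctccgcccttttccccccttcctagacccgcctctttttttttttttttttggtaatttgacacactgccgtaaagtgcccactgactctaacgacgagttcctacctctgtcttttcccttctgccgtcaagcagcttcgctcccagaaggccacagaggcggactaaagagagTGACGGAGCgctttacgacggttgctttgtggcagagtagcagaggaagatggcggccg
The match began 47 bases before the gene's start in Psmb5 and 9 bases before it in Psmb6, on the gene's strand in both. The groups lay apart for Psmb5 and overlapped for Psmb6, with a match in both windows. The motif was searched on both strands, and of the 29 members with a RefSeq promoter in the table, 5 held it (17.2%), against 16.6% of the genes of the expression table and 14.0% of all genes with a promoter there. The regulatory genes with a match were Psmc6, Psmd12 and Psmd9. A match of these letters is no evidence of a bound site.

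Of the other beta ring genes, Psmb1 had 50, 60 and 6 reads in the controls versus 53, 139, 243 and 36 reads with anti-Dll4. Control IgG 4 was lowest, and without it the log2 change of 1.54 ± 1.15 was 0.57. Psmb4 was at 112, 98.8 and 295 CPM in the controls versus 81.7, 114, 114 and 199 CPM with anti-Dll4, and had the lowest change of the core, -0.29 ± 0.60. That change was 0.20 without control IgG 4, the library with its highest value. Psmb3 and Psmb2 were low, with 2 to 53 and 0 to 28 reads, although both encode subunits that every core particle contains. Psmb2 had 2 reads over the control libraries and 33 over the anti-Dll4 libraries, 28 of them in anti-Dll4 3. Its log2 change was 1.19 ± 1.04 (adjusted p = 0.845, limma). Psmb11, the thymus form, had 0 to 2 reads in every library, at or under the floor.

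The alpha ring genes had changes from -0.25 to 1.45, 5 of 7 above 0. Psma3 was at 18.3, 24.3 and 23.5 CPM in the controls versus 26.1, 39.1, 53.8 and 163 CPM with anti-Dll4. The control values were close together and every anti-Dll4 library lay above them, anti-Dll4 1 only slightly and anti-Dll4 4 far above. The log2 change was 1.29 ± 1.03 (adjusted p = 0.82, limma), 0.77 without anti-Dll4 4, and -0.14 under scaling on endothelial markers. Psma2 was at 105, 164 and 108 CPM in the controls versus 122, 228, 231 and 237 CPM with anti-Dll4. Anti-Dll4 2, 3 and 4 were close together above all controls, while anti-Dll4 1 lay within the control range. Its log2 change was 0.68 ± 0.52 (adjusted p = 0.815, limma).

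The remaining alpha ring genes had overlapping groups. Psma4 ran from 32.6 to 152 CPM in control and from 95.2 to 221 CPM in anti-Dll4 libraries. Psma7 was at 66.4 to 174 and 89.7 to 139 CPM, and Psma1 at 27.1 to 309 and 34.6 to 153 CPM in the same order. The values of Psma1 thus spread wider among the controls than between the groups. Psma5 had 2 to 94 reads in control and 11 to 262 in anti-Dll4 libraries, and Psma6 1 to 4 and 0 to 51. Groups did not overlap for Psmb5 and Psma3, 2 of 35 members and both higher in anti-Dll4 libraries, where 7.59% of all genes tested had groups apart (3.84% with the anti-Dll4 libraries higher and 3.75% lower). A count of 2 is near that background.

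**Figure D2:**
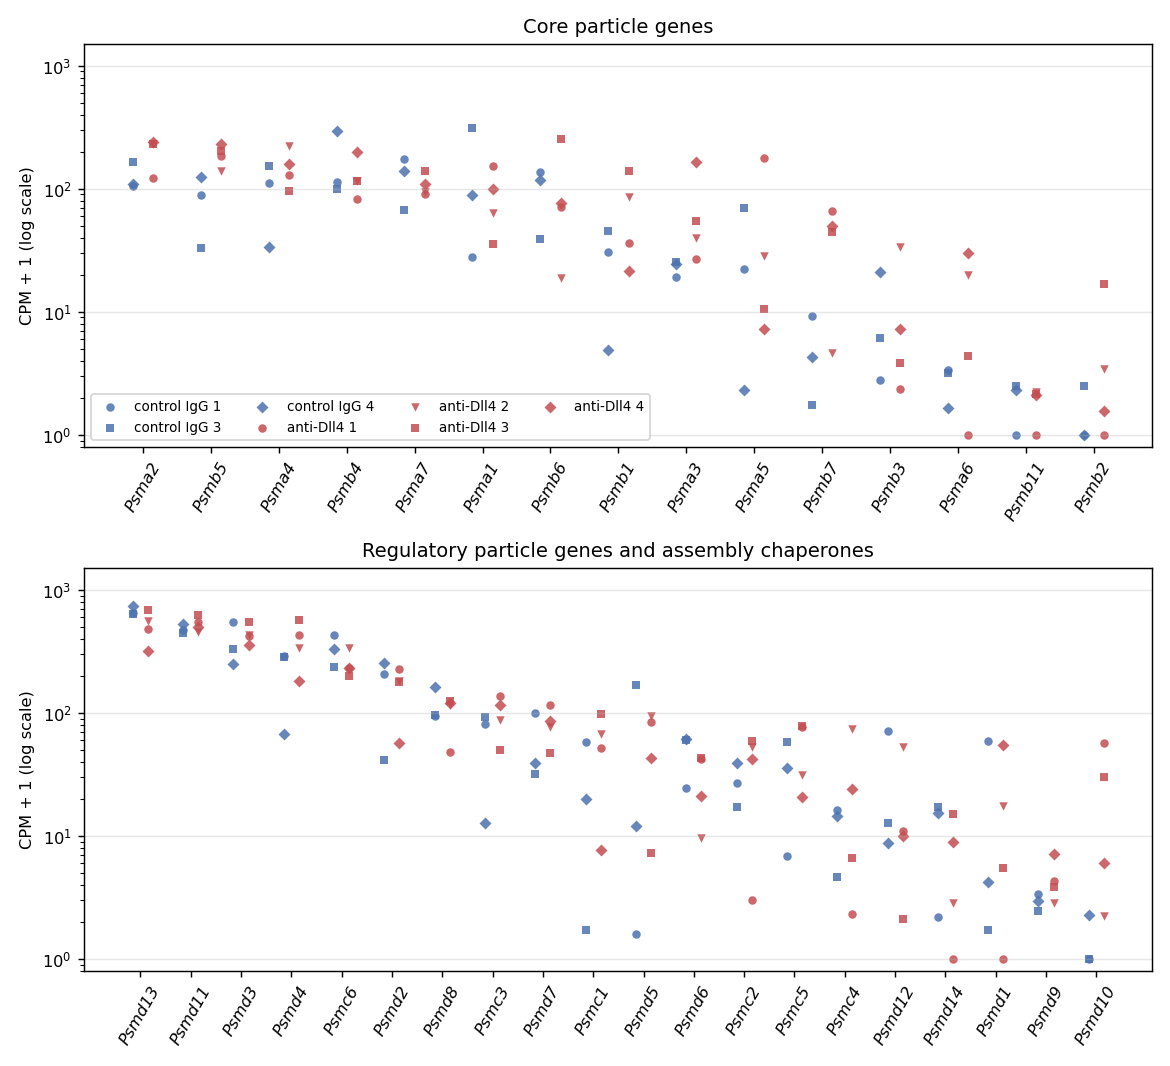
CPM + 1 of each gene in each library (log axis; blue, control IgG; red, anti-Dll4; marker shape, library number), with the core genes above and the regulatory genes below, in order of their median. Psmd13, Psmd11, Psmd3, Psmd4 and Psmc6 lie at the top.

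In the regulatory particle, 5 genes had a median of at least 200 CPM over the 7 libraries and no core gene did, the highest core median being 164 CPM (Psma2). These libraries read the 3′ ends of transcripts, so CPM was not divided by gene length, and an order of CPM is not an order of transcript numbers. Psmd13, a lid subunit, was at 651, 642 and 742 CPM in the controls versus 482, 553, 692 and 316 CPM with anti-Dll4. Anti-Dll4 3 lay among the controls and anti-Dll4 4 was lowest. The log2 change was -0.46 ± 0.34 (adjusted p = 0.805, limma), and -0.25 without anti-Dll4 4. Under scaling on endothelial markers Psmd13 and Psmc6 passed the threshold as lower, with changes of -1.89 (adjusted p = 0.0211, limma) and -1.84 (adjusted p = 0.0495), and under that scaling 797 of the 10899 genes were called lower and 1 higher.

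Psmd11, a lid subunit that promotes assembly of the full particle, was at 467, 445 and 528 CPM in the controls versus 546, 454, 619.7 and 494 CPM with anti-Dll4. It was the steadiest member, with an SD of 0.17 log2 units over all 7 libraries, and 2.45% of the 286 genes within 0.5 log2 units of its level had a smaller one. Its change of 0.13 ± 0.33 had a 95% interval of -0.55 to 0.82, which leaves out a doubling and a halving. Psmd3, also of the lid, was at 249.6 to 552 CPM in control and 358 to 550.0 CPM in anti-Dll4 libraries, a change of 0.28 ± 0.39. Psmc6, an ATPase of the base, was at 236 to 433 and 199 to 335 CPM, a change of -0.41 ± 0.43. The groups overlapped for each of these genes.

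The ubiquitin receptor gene Psmd4 was at 287, 283 and 66.5 CPM in the controls versus 427, 337, 565 and 182 CPM with anti-Dll4. Control IgG 4 stood below all others, and anti-Dll4 4 lay under the other 2 controls. Its log2 change was 0.98 ± 0.54 (unadjusted p = 0.0825, adjusted p = 0.729, limma) and was 0.29 without control IgG 4. Psmd2, a scaffold of the base, was at 40.6 to 252 and 56.5 to 227 CPM. Psmd1, its partner in the base, had 1 to 98 reads in control and 0 to 95 in anti-Dll4 libraries, with no difference between groups that could be read from such values.

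Psmd14, which encodes the deubiquitinase that cuts the chain off the substrate, had 2, 22 and 22 reads in the controls versus 0, 3, 25 and 14 with anti-Dll4. High and low libraries occurred in both groups, and the change of -0.91 ± 1.61 had a 95% interval of -4.27 to 2.45. With 1 library left out it ran from -1.88 (without control IgG 1) to -0.20 (without anti-Dll4 1), and also moved without control IgG 3 (-0.39), control IgG 4 (-0.47) or anti-Dll4 3 (-1.504). Psmd12, a lid scaffold, had the lowest change of the regulatory genes, -0.93 ± 1.65, from 120, 16 and 12 reads against 15, 85, 2 and 16. Its high values were 1 library in each group, and without control IgG 1 the change was close to 0. It was -1.52 without control IgG 4, -1.70 without anti-Dll4 2 and -0.16 without anti-Dll4 3. Psmd6, Psmd7 and Psmd8 of the lid had changes of -0.87 ± 1.12, 0.63 ± 0.80 and -0.25 ± 0.64. In all, 3 of 8 lid genes had a change above 0, with a median of -0.35.

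The ATPase genes had changes from -0.41 to 1.68, 4 of 6 above 0. Psmc3 was at 80.3, 92.2 and 11.7 CPM in the controls versus 136, 87.5, 48.7 and 114 CPM with anti-Dll4, and its change of 0.99 ± 0.85 was 0.068 without control IgG 4 and 1.504 without control IgG 3. Psmc1 had 96, 1 and 29 reads in the controls versus 76, 109, 170 and 12 with anti-Dll4, and its change of 1.68 ± 1.44 was 0.25 without control IgG 3, the library with 1 read, and 2.78 without control IgG 1. Both changes thus depended on single control libraries. Psmc2, Psmc4 and Psmc5 had 3 to 102, 2 to 119 and 10 to 137 reads over the libraries, with changes of -0.07 ± 1.34, 0.31 ± 1.70 and 0.88 ± 1.13.

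Psmd10 encodes gankyrin, a chaperone that helps to assemble the base, and had the highest change of all members. It had 0, 0 and 2 reads in the controls versus 84, 2, 52 and 9 with anti-Dll4. Control IgG 4 and anti-Dll4 2 had 2 reads each, so the groups overlapped. Among the controls only control IgG 4 reached 1 CPM, so the gene entered the test through the anti-Dll4 libraries, which spread widely. The fitted log2 change of 3.23 ± 1.52 depends on the added 1 CPM (unadjusted p = 0.0455, adjusted p = 0.695, limma). In RefSeq the gene overlaps Atg4a, and whether the counting used strand is not given in the sources used here. Of the other chaperones, Psmd5 had 1, 228 and 17 reads against 124, 154, 11 and 74, and Psmd9 2 to 4 against 3 to 11.

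Summed over genes, the core was at 834, 1009 and 956 CPM in the controls versus 1132, 1086, 1335 and 1384 CPM with anti-Dll4. The groups lay apart, with means of 933 ± 89.4 (SD, n = 3) and 1234 ± 147 CPM (SD, n = 4), a ratio of 1.32. The groups overlapped once Psmb5 or Psma4 was left out of the sum (ratios of 1.23 and 1.30), and stayed apart without any other single gene. They also overlapped for the sum of the 8 core genes with a mean of at least 50 CPM. That sum was 0.0782% to 0.0906% of the reads in control and 0.0864% to 0.120% in anti-Dll4 libraries. The regulatory genes summed to 2529 to 3129 CPM in control and 2190 to 3361 CPM in anti-Dll4 libraries, a ratio of 1.04 with overlapping groups. Psmd13, Psmd11, Psmd3 and Psmc6 made up 56.8% to 71.6% of that sum. No test is given for these sums, because the members were chosen with earlier results known.

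The endothelial markers had a ratio of 2.10 and the rod markers of 0.625 in the same libraries. Single markers did not all follow their sum. Of the endothelial markers 16 of 18 had a change above 0, and Kdr (-0.46 ± 0.47) and Flt1 (-0.38 ± 0.41), the most abundant of them in control libraries, were below it. Of the rod markers 13 of 15 were below 0, Sag had a change of 0.39 ± 0.28, and Rp1 one of 0.82 ± 0.34 with groups apart (unadjusted p = 0.0233, adjusted p = 0.673, limma). The change of the core sum was therefore smaller than that of the endothelial markers. With rod markers as a covariate, the core median change was 0.56 in place of 0.70, and the regulatory median 0.34 in place of 0.23. The same covariate moved the median of all genes tested from -0.14 to 0.032. The rod marker sums lay apart between the groups, so this fit cannot tell the antibody from the rod level.

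**Figure D3:**
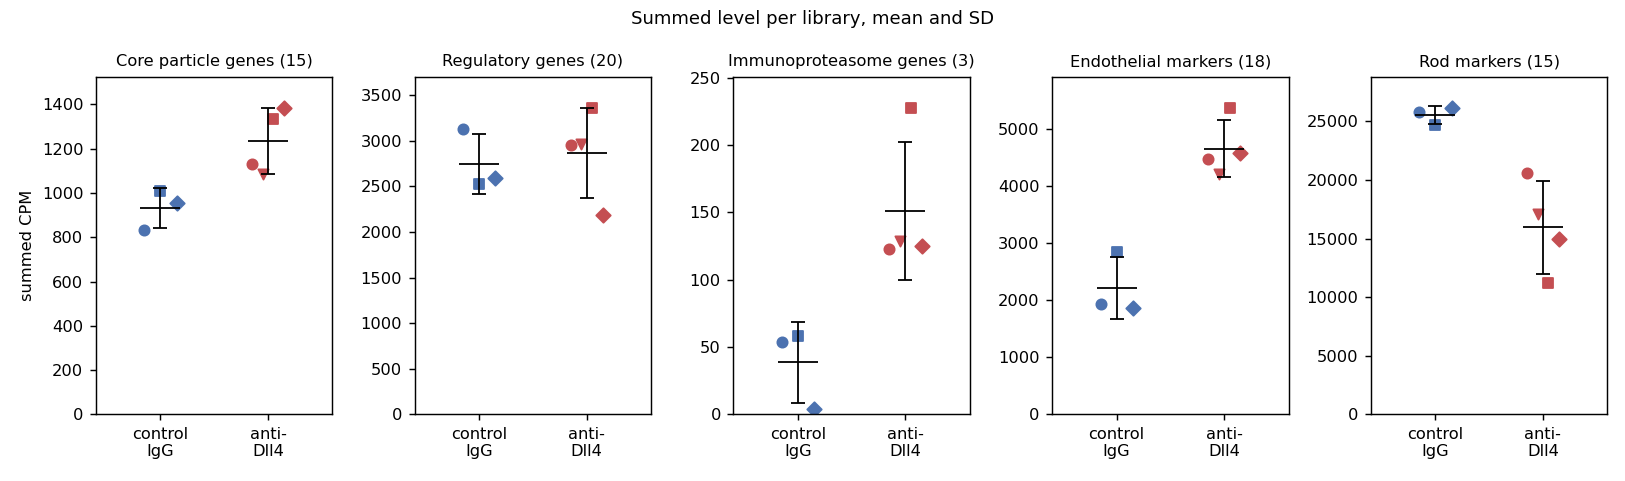
Summed CPM per library of the core genes, the regulatory genes, the immunoproteasome genes and the marker lists (vertical axes from 0; points, libraries with marker shapes by number; bars, mean and SD). The core sum of the anti-Dll4 libraries (1086 to 1384 CPM) lies above that of the controls (834 to 1009 CPM), the regulatory sums overlap, and the endothelial and rod marker sums lie apart in opposite directions. Scaled on endothelial markers, the core median change is -0.73 and the median of all genes tested is -1.57.

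The immunoproteasome genes, which replace the catalytic subunits after interferon exposure, were left out of the members and are given beside them. Psmb8, the counterpart of Psmb5, had 3, 50 and 2 reads in the controls versus 107, 72, 241 and 84 with anti-Dll4. All anti-Dll4 libraries lay above all controls, with a log2 change of 3.46 ± 1.34 (unadjusted p = 0.0178, adjusted p = 0.635, limma). Psmb9 had 53, 24 and 3 reads against 15, 106, 154 and 75, and Psmb10 35, 5 and 1 against 61, 33, 7 and 62. Their changes were 1.75 ± 1.35 and 1.86 ± 1.68, so that 3 of 3 were above 0 and 0 of 3 passed. Psme1 and Psme2, which encode the interferon-inducible activator cap, had changes of -0.48 ± 1.54 and -0.24 ± 1.15, and 2 of the 5 activator and inhibitor genes were above 0. Psme2 has a near-identical copy in the table, Psme2b, with which it can share reads.

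Other genes of the pathway had no call over all genes either. For assembly, 0 of 6 passed with a median change of -0.27; Pomp, the maturation chaperone of the core, was at 161, 305 and 418 CPM in the controls versus 522, 541, 484 and 645 CPM with anti-Dll4. Its groups did not overlap, and the change was 0.99 ± 0.39 (adjusted p = 0.646, limma). Among associated proteins 0 of 8 passed, with a median of -1.82 and 2 of 8 above 0. Sem1, a small lid subunit outside the naming rule, was at 172, 91.4 and 185 CPM against 536, 231, 515 and 227 CPM, a change of 1.27 ± 0.49 (adjusted p = 0.629). Ube3c, a ligase that extends chains on the proteasome, was at 121 to 179 CPM in control and 10.7 to 75.3 CPM in anti-Dll4 libraries, lower in all of them, with a change of -2.21 ± 0.83 (adjusted p = 0.601).

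Of the regulators of proteasome genes 0 of 8 passed (median 0.32, 5 of 8 above 0). Nfe2l1, which drives the recovery of proteasome genes after inhibition, was at 56.1, 103 and 134 CPM in the controls versus 106, 106, 106 and 139 CPM with anti-Dll4, a change of 0.31 ± 0.62. Nfe2l2, the oxidative stress factor, had 0, 1 and 3 reads in the controls versus 84, 110, 51 and 7 with anti-Dll4, apart but with a fitted change of 4.00 ± 1.68 that did not pass (adjusted p = 0.688, limma). Of 17 tested genes for ubiquitin and substrate delivery, 0 passed and 12 were above 0, with a median of 0.32. Ubb, a polyubiquitin gene, was at 332, 402 and 412 CPM in the controls versus 601, 716, 1038 and 909.6 CPM with anti-Dll4, a change of 1.07 ± 0.33 (adjusted p = 0.374). Rps27a, which encodes ubiquitin fused to a ribosomal protein, had a change of 1.40 ± 0.35 (adjusted p = 0.178), with 212 to 396 CPM in control and 633 to 1043 CPM in anti-Dll4 libraries.

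The members differed widely in how steady they were between libraries. The CPM of 9 of 15 core and 10 of 20 regulatory genes differed by at least 10-fold between libraries or were at 0 in some, whereas Psmd11 alone stayed within 2-fold. The SD over the 7 libraries tended to be smaller for genes with more reads. The Pearson r was -0.59 between mean log2 level and SD, across 35 genes that share the same libraries. Not all genes near the floor followed this: Psmd9 (2 to 11 reads) had an SD of 0.51 and Psmb11 (0 to 2 reads) of 0.58. The spread was wider than counting of reads alone gives for most genes with many reads: Psmd4 had a coefficient of variation of 59.5% among controls, where its reads alone would give 5.55%, and Psmb5 57.5% where reads would give 8.86%. For Psmd11 the values were 8.98% and 3.69%. Although the encoded subunits are assembled in fixed proportions, the median CPM of the constitutive genes over the libraries ranged from 0.565 (Psmb2) to 642 (Psmd13), on a scale that is not per length.

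**Figure D4:**
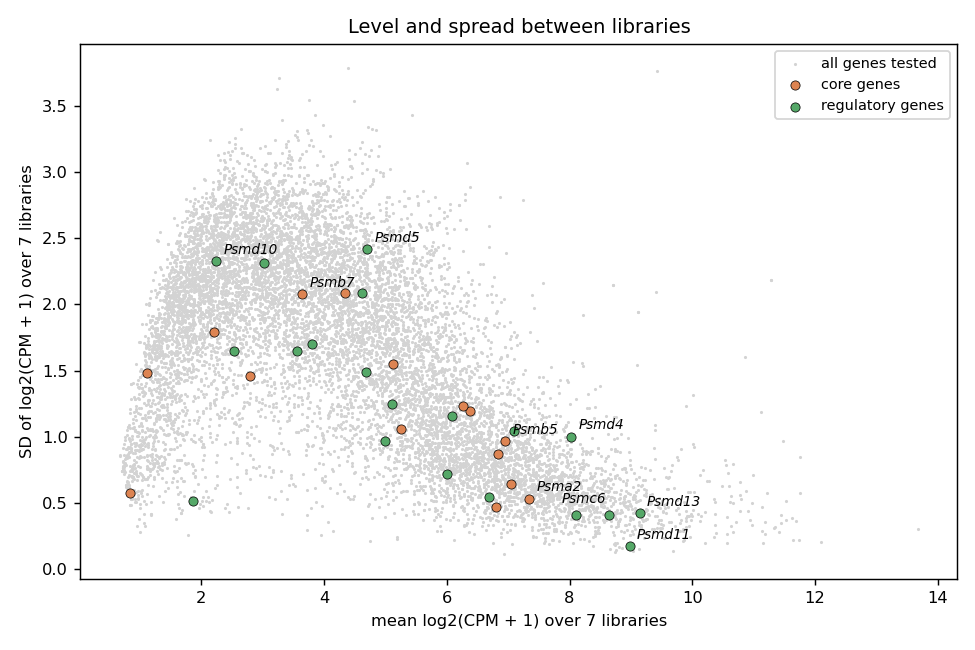
Mean log2(CPM + 1) over the 7 libraries (horizontal axis) and its SD (vertical axis) for all genes tested (grey), core genes (orange) and regulatory genes (green). Psmd11 has the smallest SD of the members (0.17) at a high level, and Psmd5 the largest (2.42).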

How the data were processed

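The deposited table holds log10 values; turned back, they are CPM plus 1, scaled to one library total over the listed genes. The submitters' processing notes list cutadapt, TopHat2, bedtools and hg19, a human build, although the symbols are mouse; annotation, counting rule and strand use: not given in the sources used here. Of all CPM values, 100% were whole multiples of a read (tolerance 1e-06), so reads could be computed; no molecular identifiers are named.

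A gene was tested if it reached 1 CPM in 3 or more of 7 libraries. The test was limma 3.58.1 in R 4.3.3 on log2(CPM + 1), two-sided, with a mean-variance trend and Benjamini-Hochberg adjustment over all genes. The fit was also run on simulated data. There, changes were added only to genes with a mean of at least 50 CPM, so the run does not cover changes of lower members. The design assumed log2 values, and log10 values were converted. A change is a difference of mean log2(CPM + 1), with a limma SE, and is understated for low genes. The column control IgG 1 fits no title number (the control title left over has 15) and served as an unnumbered control.

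Members and lists were chosen with earlier results of these data known. Values in every library are given for Psmb5, Psmb6, Psmb7, Psmd4, Psmd14, the 5 core and 5 regulatory genes with the smallest p, those with groups apart and those with the extreme changes; other genes named with values, such as Psmd11, Pomp and Ubb, were chosen after their values were seen. GENCODE M21 names pseudogenes of Psmb5, Psmb6 and Psmb7, and in RefSeq Psma4, Psmd1 and Psmd10 overlap another listed gene, so their reads are uncertain.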

Additional observations from a re-analysis of the deposited data

Results flagged for a closer look

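The check for outlying libraries covered the members chosen by the rule given above, with Psmb8, Psmb9, Psmb10, Psme1 and Psme2. Other genes, such as Nfe2l1, Pomp and Ubb, were not examined in this way. Within the 4 anti-Dll4 libraries, 2 of the genes covered had a library far from the others on the log2(CPM + 1) scale. Chance flags about 1 in 20 groups. For Psma2, anti-Dll4 1 (122 CPM) lay below the other 3 (228 to 237 CPM), and its gap to the nearest was 0.942 of the group's range. For Psmb7, anti-Dll4 2 (6 reads) lay below the other 3 (77 to 97 reads), with a gap of 0.852 of the range. Without these libraries the changes were 0.91 for Psma2 and 3.69 for Psmb7. The groups of 3 control libraries were not examined in this way.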

How the results depend on the processing

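The count of 13 genes called over all genes was 3 to 20 with a library left out in turn (4 without control IgG 1, 20 without control IgG 3, 6 without anti-Dll4 1 or anti-Dll4 2, 3 without anti-Dll4 4). It was 0 without the mean-variance trend, 0 with rod markers as a covariate, 40 with voom (16 higher, 24 lower) and 798 under scaling on endothelial markers (1 higher, 797 lower). With a replicate block it was 3 on title numbers and 4 on column numbers, and the regulatory median was 0.40 with the block on title numbers. Deviations of libraries with the same column number correlated at 0.05 to 0.07, above every other pair of a control and an anti-Dll4 library. Anti-Dll4 2 has no control of its number. These values are low, and whether the libraries are paired was not settled. The count of members called was 0 for the core under every alternative run, and 0 for the regulatory genes except 2 under scaling on endothelial markers. That scaling gave medians of -0.73 (core), -1.21 (regulatory) and -1.57 (all genes tested). Under it the changes were -0.75 for Psma2, -0.14 for Psma3, -0.044 for Psmb5, -0.44 for Psmc3 and -0.45 for Psmd4. With a library left out in turn, the core median was 0.57 to 0.97, the regulatory median -0.091 to 0.49, the change of Psmb4 -0.58 to 0.20 and that of Psmb6 -0.88 to 0.37; Psmb6 was 1.04 with the replicate block on title numbers. The causes of these shifts were not tested. Other pseudocounts (0.5 and 4), filters (none, 10 CPM) and centring on the median gene kept the medians within the spread between libraries.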
